A study of Bos taurus with 16 samples.

Results

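Blastocysts of cows fed seeds rich in polyunsaturated fatty acids were compared with blastocysts of cows fed seeds rich in the monounsaturated oleic acid. All 16 of the 16 two-colour arrays of the study entered the comparison, as 8 arrays of FLX with CAN and 8 arrays of SUN with CAN. Each ratio was turned to diet over CAN and averaged with its dye exchange, and for each replicate number from 1 to 4 the FLX and SUN values were averaged. Every probe was therefore described by 4 number means, in which the CAN sample of a number counted once. FLX was rolled flax, rich in α-linolenic acid, given to 8 cows. SUN was rolled sunflower, rich in linoleic acid, given to 7 cows. CAN was rolled canola, rich in oleic acid and named as the control, given to 8 cows. In all of these groups the cows were non-lactating Holsteins, kept on their seed for at least 35 days, superstimulated with follicle-stimulating hormone and inseminated 12 h apart with semen of a common sire. The embryos were collected without surgery at day 7.5, and blastocysts of a cow were pooled. The sources used here gave neither the age of the cows nor which cows stood behind each replicate, so p-values measure the spread between these pools, which may be in part technical.

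A blastocyst holds an outer trophectoderm, which forms the placenta, and an inner cell mass, from which epiblast and hypoblast separate. Linoleic and α-linolenic acid cannot be made by mammals; desaturases and elongases lengthen them to the acids that sit in membrane phospholipids, where phospholipases A2 free them for prostaglandin synthesis. Oleic acid can be made from stearic acid by stearoyl-CoA desaturase. In rodent liver, polyunsaturated acids lower the activity of SREBF1, a driver of lipid synthesis genes, and bind PPAR receptors, which drive fatty acid oxidation genes.

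The deposited values were log2 ratios, taken here as Cy5 over Cy3, a likely but not stated direction. If it runs the other way, every sign below turns. The 4 number means resembled each other little across the 43794 probes: their pairwise correlations ran from −0.20 to 0.19. Number 2 was the widest, with 486 probes at least 2-fold from CAN, of which 356 were above it, against 123, 218 and 88 probes in numbers 1, 3 and 4. The SD of a probe over the 4 number means had a median of 0.11 (log2), and the 95% confidence interval of a mean reached a median of 0.14 to each side, which is 1.11-fold. Ratios hold no levels, so whether a marker was present at all could not be checked.

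No probe separated the polyunsaturated diets from CAN after adjustment for multiple tests. In limma's test with Benjamini-Hochberg adjustment 0 of 43794 probes (0.0%) passed a false discovery rate of 0.05, and the smallest adjusted p was 1.0. At unadjusted p under 0.05 there were 1627 probes (3.72%), 886 above CAN (2.02%) and 741 below it (1.69%), fewer than 1 in 20. Of these, 30 probes (0.0685%) were also at least 1.5-fold from CAN, 8 above it (0.0183%) and 22 below it (0.0502%). The sign was the same in all 4 number means for 4992 probes (11.4%). Over the 15216 genes with a symbol, 0 passed (0.0%) and 547 (3.59%) lay at unadjusted p under 0.05, 288 above CAN (1.89%) and 259 below it (1.7%). Means were positive for 7762 of these genes and negative for 7454, which is the background for the splits of gene lists below. A common sign in the 4 number means was held by 11.4% of genes, 6.03% above CAN and 5.35% below it, and a common sign in all 8 diet values by 1.47%. The FLX and SUN values of a number are taken to share their CAN sample, so the 8 were not counted as independent. The counts at unadjusted p moved with the numbers and dyes used: 2837 probes without number 3, 5723 on the arrays with CAN in Cy3 and 4381 on those with CAN in Cy5. The count at 1.5-fold ran from 15 without number 2 to 155 without number 3, with 65 without number 1 and 79 without number 4. Taking the 8 FLX and SUN values as independent gave 2969 probes and again none past adjustment. All genes named below are therefore values that did not pass.

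**Figure D1:**
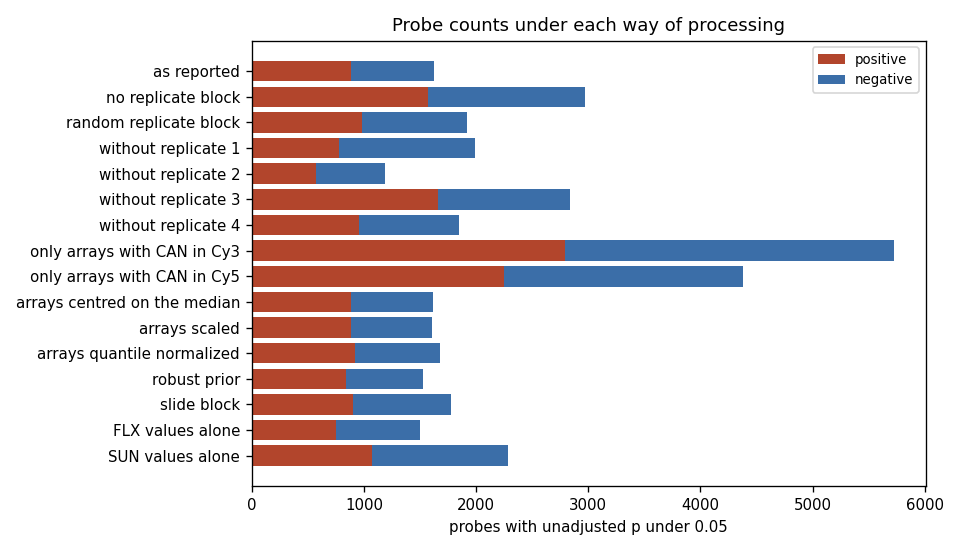
Number of probes at unadjusted p under 0.05 in limma (horizontal axis) as reported and under 15 other ways of processing, with probes above CAN in red and probes below CAN in blue. The count as reported was 1627, and the longest bar, of 5723, came from the arrays with CAN in Cy3 alone.

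The gene of smallest unadjusted p was TALDO1, which encodes transaldolase of the pentose phosphate pathway. Its probe had log2 ratios of −0.35, −0.60, −0.30 and −0.34 in FLX and −0.63, −0.21, −0.36 and −0.38 in SUN for numbers 1 to 4. All 8 values were below CAN, and the FLX and SUN values overlapped. The mean was −0.40 ± 0.07 (SD, n = 4), with an unadjusted p of 0.000275 in limma. Of the 5 other TALDO1 probes, 4 were below CAN as well, and the mean over all its probes was −0.25. Of the 11 pentose phosphate genes measured, 6 had positive and 5 negative means, with a median of 0.01, and TALDO1 was the only one at unadjusted p under 0.05 (9.09%, against 3.59% of all genes).

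Among genes of energy metabolism, PGK1, the phosphoglycerate kinase of glycolysis, had number means of 0.23, 0.29, 0.34 and 0.17. PGK1 lies on the X chromosome and averaged 0.38 in FLX and 0.14 in SUN. The probe of PDHX, a structural part of the pyruvate dehydrogenase complex, read 0.43, 0.32, 0.57 and 0.64. All 8 of its diet values were above CAN, but its other probe was at −0.07, and the first was at 0.73 with CAN in Cy3 and 0.25 with CAN in Cy5. COX8A, a subunit of cytochrome c oxidase, read 0.31, 0.46, 0.23 and 0.25. Its value came from 1 dye orientation, 0.05 with CAN in Cy3 and 0.58 with CAN in Cy5. IMMT, which shapes the cristae of mitochondria, read 0.23, 0.26, 0.23 and 0.25, but the SD over numbers was 0.16 in FLX and 0.15 in SUN. In number 1 IMMT was at −0.04 in FLX and 0.51 in SUN, and its 2 other probes averaged −0.03 and −0.01. ECHS1, an enoyl-CoA hydratase of mitochondrial fatty acid oxidation, read −0.66, −0.45, −0.37 and −0.29. ECHS1 was below CAN in all 8 diet values, and averaged −0.17 ± 0.09 in FLX and −0.71 ± 0.34 in SUN, without overlap. TBRG4, a mitochondrial RNA-binding protein, read −0.52, −0.67, −0.37 and −0.37, also without overlap between FLX (−0.28 ± 0.09) and SUN (−0.69 ± 0.27). METTL15, a methyltransferase of mitochondrial ribosomal RNA, averaged 0.35 ± 0.13 on its probe, with all 8 values above CAN. Its other probe averaged 0.01.

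**Figure D2:**
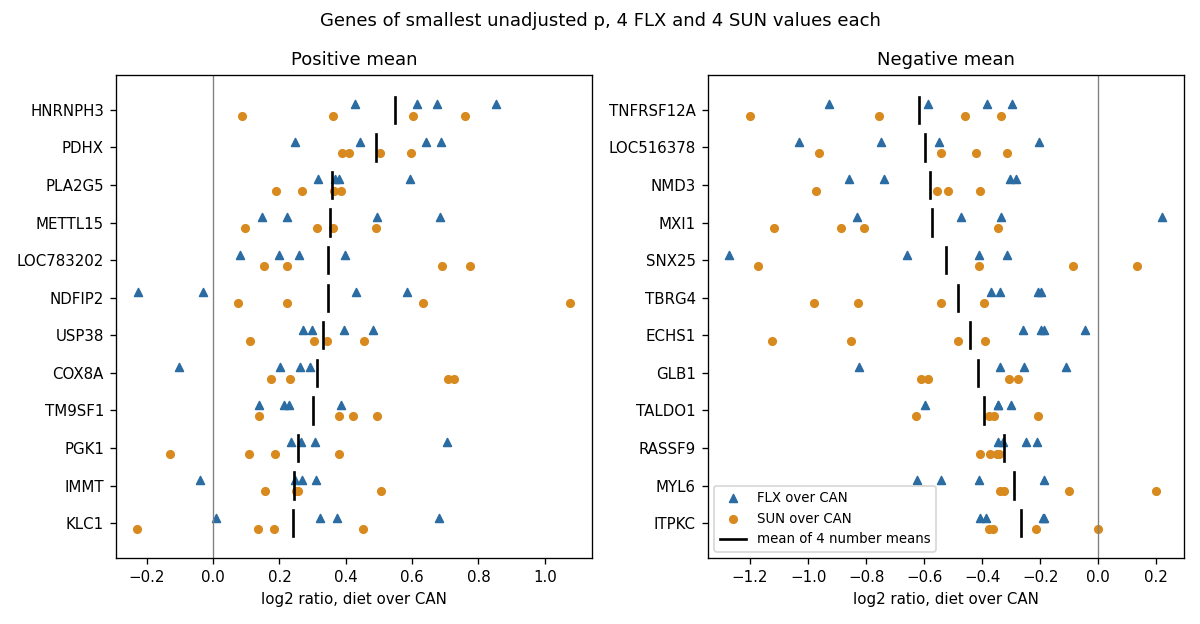
Log2 ratios of diet over CAN (horizontal axis) for the 12 genes with the smallest unadjusted p and a positive mean (left) and the 12 with a negative mean (right), with FLX values as blue triangles, SUN values as orange circles and the mean of the 4 number means as a black bar. RASSF9 and TALDO1 had all 8 values below 0, and PLA2G5 and PDHX all 8 above 0.

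PLA2G5 encodes a secreted phospholipase A2, which frees fatty acids from membrane phospholipids. It had log2 ratios of 0.37, 0.32, 0.59 and 0.38 in FLX and 0.39, 0.19, 0.27 and 0.37 in SUN. Every value was above CAN, and the values of the diets overlapped. The mean was 0.36 ± 0.07 (SD, n = 4), or 1.28-fold, with an unadjusted p of 0.00052 in limma. The calcium-independent phospholipase PLA2G6 stood on the other side, at −0.25 ± 0.10 over its probes, and these were the only 2 of the 22 phospholipases A2 measured at unadjusted p under 0.05 (9.09%, against 3.59% of all genes).

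HNRNPH3, a nuclear RNA-binding protein of splicing, had ratios of 0.85, 0.67, 0.62 and 0.43 in FLX and 0.36, 0.76, 0.09 and 0.60 in SUN. All 8 were above CAN, as were the means of its 3 other probes, from 0.02 to 0.40. Below CAN stood 3 genes of ribosomes. NMD3, an adaptor for nuclear export of the large ribosomal subunit, averaged −0.58 ± 0.16, with 1 of its 3 other probes of the same sign. RPS14, a protein of the small cytosolic subunit, had number means of −1.12, −0.67, −0.67 and −0.24, and its second probe averaged −0.62. MRPL14, of the mitochondrial large subunit, read −1.15, −0.96, −0.15 and −0.48, and its other probe averaged −0.13. Number 1 was the lowest for both RPS14 and MRPL14. LIG1, the DNA ligase of replication, read −1.04, −0.49, −0.70 and −0.30. RPS14, MRPL14 and LIG1 were named for a common sign in all 8 diet values.

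Genes of traffic and signalling completed the set. Above CAN were TM9SF1, a multispanning endosomal membrane protein (0.30 ± 0.05), NDFIP2, an adaptor of ubiquitin ligases (0.35 ± 0.08), USP38, a deubiquitinase (0.33 ± 0.09), KLC1, a kinesin light chain (0.24 ± 0.02), LOC783202 (0.35 ± 0.10) and DENND4A, an activator of RAB proteins (0.52 ± 0.48). A small SD over the number means did not mean that the diets were alike. NDFIP2 read 0.58, −0.23, 0.43 and −0.03 in FLX and 0.22, 1.08, 0.08 and 0.63 in SUN. KLC1 read 0.37, 0.01, 0.68 and 0.32 in FLX and 0.18, 0.45, −0.23 and 0.14 in SUN. HSP90B1, a chaperone of the endoplasmic reticulum, averaged 0.65 ± 0.51 on its first probe and 0.00 on its second. Number 2 was the highest for both HSP90B1 (1.37) and DENND4A (1.20). Below CAN were RASSF9, a Ras-association protein of recycling endosomes (−0.33 ± 0.03), MXI1, an antagonist of MYC (−0.57 ± 0.17), SNX25, a sorting nexin (−0.52 ± 0.17), and GLB1, the lysosomal β-galactosidase (−0.41 ± 0.13). So were ITPKC, an inositol trisphosphate kinase (−0.27 ± 0.05), TNFRSF12A, the receptor of the cytokine TWEAK (−0.62 ± 0.23), LOC516378 (−0.60 ± 0.23) and DESI2 (−0.66 ± 0.31). RASSF9 was at −0.12 with CAN in Cy3 and −0.53 with CAN in Cy5, and ITPKC at −0.12 and −0.42. Other probes of the same gene lay nearer to CAN for USP38 (0.02 and 0.05) and NDFIP2 (0.04 to 0.18). So did those of MXI1 (−0.07 and −0.04) and DESI2 (−0.07 and −0.06). MYL6, the essential light chain of non-muscle myosin, averaged −0.29 ± 0.07 on its probe. Its 10 other probes were all below CAN but nearer to it, from −0.26 to −0.00014, and the mean over all its probes was −0.17. Averaged over all its probes, MYL6 was at −0.38 in FLX and 0.04 in SUN.

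The genes that act on polyunsaturated acids themselves held to no common direction. Of 17 desaturases and elongases measured, 10 had positive and 7 negative means, 0 lay at unadjusted p under 0.05 in limma (3.59% of all genes did) and 0 kept 1 sign through the 4 numbers. SCD, the stearoyl-CoA desaturase that makes oleic acid, had number means of 0.57, 0.38, −0.98 and 0.27. FADS2, the desaturase that first acts on linoleic and α-linolenic acid, read −0.30, 0.35, −0.84 and 0.28. For both, number 3 lay far below the others, and the SD over numbers (0.70 for SCD, 0.56 for FADS2) exceeded the mean. FADS1 averaged −0.05 ± 0.24, and the elongases ELOVL2 and ELOVL5 0.05 ± 0.10 and 0.00 ± 0.17.

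In the synthesis of fatty acids, SREBF1 read −0.47, 0.03, −0.35 and −0.23, below CAN in 3 of 4 numbers, with a mean of −0.26 ± 0.21 and an unadjusted p of 0.035 in limma. SREBF1 was at −0.51 with CAN in Cy3 and at 0.00 with CAN in Cy5. ACLY, which makes the acetyl-CoA for lipid synthesis, averaged 0.19 ± 0.17, and its further steps FASN and ACACA 0.06 ± 0.35 and 0.01 ± 0.22. These 13 lipogenic genes had a median of 0.0089. At unadjusted p under 0.05 were 1 gene above CAN and 1 below it (15.4%, against 3.59% of all genes).

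For fatty acid oxidation and ketone bodies the 32 members were split evenly, 16 on each side. Besides ECHS1, ETFDH, which passes electrons from fatty acid oxidation to ubiquinone, was at 0.12, 0.44, 0.29 and 0.05, with all 8 diet values above CAN. The receptors PPARA (−0.01 ± 0.09), PPARD (0.05 ± 0.51) and PPARG (0.00 ± 0.17) lay near CAN on average, and their partner RXRA averaged 0.10 ± 0.08. None of the 22 nuclear lipid receptors and coactivators was at unadjusted p under 0.05. Of them 7 (31.8%, against 11.4% of all genes) kept 1 sign in all 4 numbers, 5 above CAN and 2 below it. Their list median was −0.0030 with CAN in Cy3 and 0.0052 with CAN in Cy5.

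In fatty acid uptake, 18 of 29 members were below CAN, with list medians of −0.02, −0.01, −0.04 and −0.04 by number. With CAN in Cy3 alone 17 of 29 were above CAN, with a median of 0.02. SLC27A4, a fatty acid transport protein, averaged −0.22 ± 0.17, and was the only member at unadjusted p under 0.05 (3.45%, against 3.59% of all genes). Among genes of triglyceride storage, GPAM, the first acyltransferase of glycerolipid synthesis, read −0.16, −0.12, −0.11 and −0.09, below CAN in all 8 diet values. DGAT1, which adds the last acyl chain, read 0.06, 0.10, 0.09 and 0.13, but was at −0.05 with CAN in Cy3 and 0.24 with CAN in Cy5. The lipid droplet protein PLIN3 was at −0.35, −0.34 and −0.33 in numbers 1 to 3 and at 0.08 in number 4. No gene of prostaglandin metabolism was at unadjusted p under 0.05. There, PTGS1 averaged 0.10 ± 0.07, and PTGS2, the inducible cyclooxygenase, ran from −0.78 in number 3 to 1.57 in number 2.

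Cholesterol synthesis differed by number. Of 24 members 18 had positive means, with list medians of 0.11, 0.13, −0.11 and 0.06 by number, −0.04 in FLX and 0.15 in SUN. SQLE, the squalene epoxidase, averaged −0.07 ± 0.27 in FLX and 0.65 ± 0.84 in SUN. Only 2 members were at unadjusted p under 0.05 (8.33%, against 3.59% of all genes), both below CAN. These were GGPS1, the geranylgeranyl diphosphate synthase (−0.16 ± 0.06), and SCAP, the escort of SREBP proteins (−0.22 ± 0.19). Without number 3 the count was 8 (33.3%, against 6.69% of all genes), of which 7 were above CAN. Without number 2 the count was 0 (against 2.67% of all genes).

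**Figure D3:**
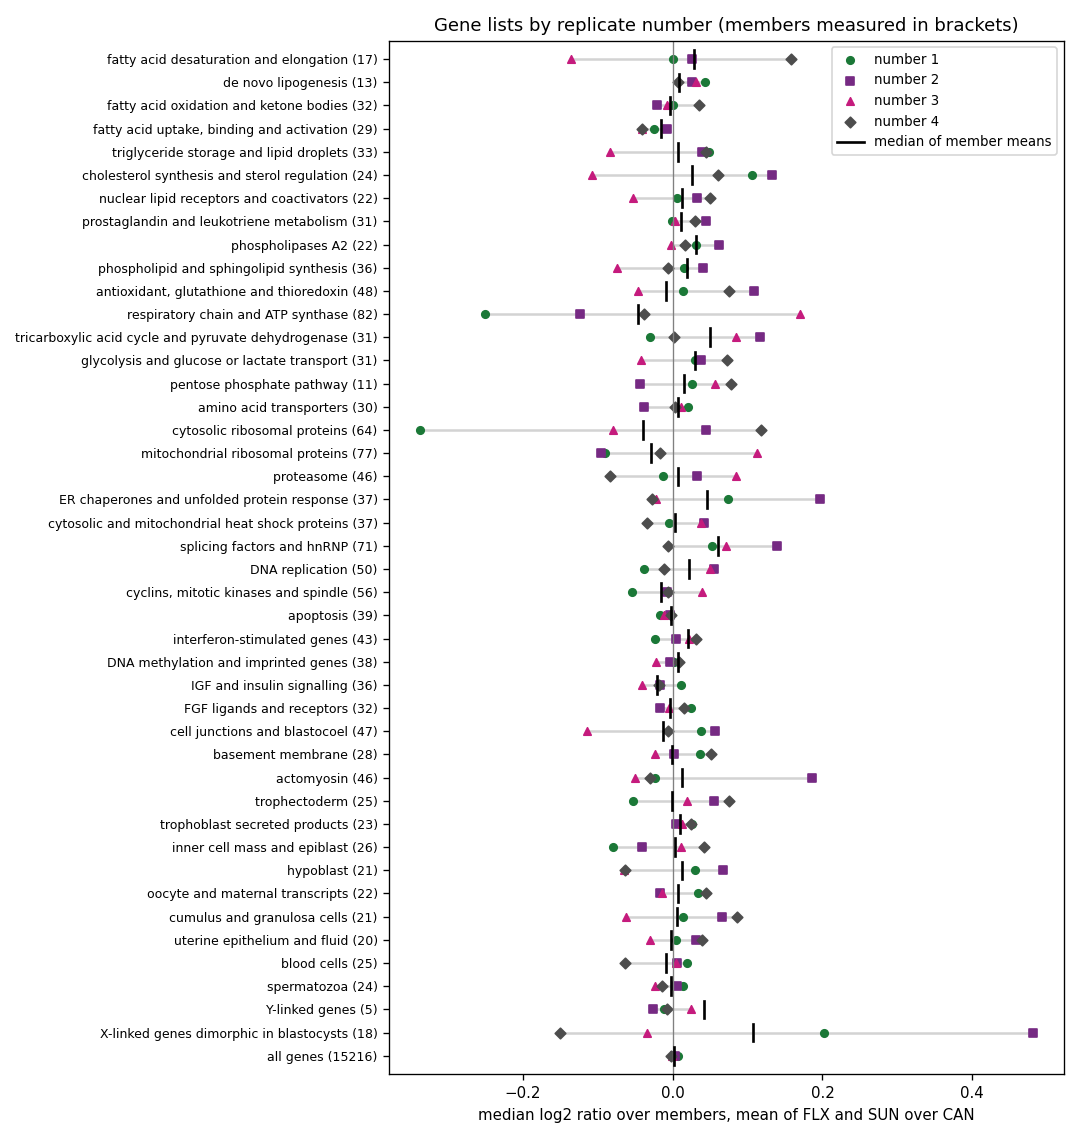
Median log2 ratio over the measured members of 43 gene lists and of all genes (horizontal axis), for the means of FLX and SUN over CAN in replicate numbers 1 (green circles), 2 (purple squares), 3 (pink triangles) and 4 (grey diamonds), with a black bar at the median of the member means. The all-gene medians lay between −0.0021 and 0.0078, while the cytosolic ribosomal proteins spread from −0.34 in number 1 to 0.12 in number 4.

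In the respiratory chain and ATP synthase, 57 of 82 members were below CAN, with a list median of −0.05. The list medians by number were −0.25, −0.12, 0.17 and −0.04, so number 3 stood on the other side. Without number 1 the median was 0.0062, and it was −0.11 with CAN in Cy3 and 0.03 with CAN in Cy5. At unadjusted p under 0.05 there were 3 members above CAN and 3 below it (7.32%, against 3.59% of all genes). Without number 3 there were 22 (26.8%, against 6.69% of all genes). NDUFV1, which binds NADH in complex I, read −0.73, −0.60, −0.33 and −0.03, and ATP5F1B, the catalytic subunit of ATP synthase, read 0.09, 0.41, 0.45 and 0.13.

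Of the 31 genes of the tricarboxylic acid cycle and pyruvate dehydrogenase, 22 had positive means, against 7762 of all 15216 genes. At unadjusted p under 0.05 were 4 members (12.9%, against 3.59% of all genes), all above CAN. Without number 2 the split was 17 to 14, with 2 calls on each side (12.9%, against 2.67% of all genes). Without the replicate block 4 calls were above CAN and 2 below it (19.4%, against 7.28% of all genes). The 4 genes were PDHX (0.21 ± 0.07 over its probes), PDK2, a kinase that switches pyruvate dehydrogenase off (0.23 ± 0.19), IDH3B, of isocitrate dehydrogenase (0.19 ± 0.09), and MDH2, malate dehydrogenase (0.14 ± 0.07). PDHX and IDH3B were above CAN in all 8 diet values. The list median of 0.05 ranged from 0.0097 without number 2 to 0.08 without number 1. In glycolysis, PFKFB2, which sets the level of an activator of phosphofructokinase, stood at −0.35 ± 0.19 and below CAN in all 8 values, opposite to PGK1.

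Cytosolic ribosomal proteins were below CAN in 42 of 64 cases, 3 of them at unadjusted p under 0.05 (4.69%, against 3.59% of all genes). These were RPS14 (−0.65 ± 0.36), RPL29 (−0.35 ± 0.25) and RPLP1 (−0.45 ± 0.33). The list median by number was −0.34 in number 1, 0.05 in number 2, −0.08 in number 3 and 0.12 in number 4. Without number 1 it was 0.06, against −0.04 with all numbers. Without number 4, 9 members were at unadjusted p under 0.05 (14.1%, against 4.55% of all genes). Of 77 mitochondrial ribosomal proteins 45 were below CAN. At unadjusted p under 0.05 (7.79%, against 3.59% of all genes) 5 were below CAN and 1 above it. The lowest was MRPS24 (−0.63 ± 0.45), and the 1 above CAN was MRPL9 (0.21 ± 0.13). That list's median was −0.03, and 0.0094 without number 1. Ribosomal protein genes have many near-identical copies in mammalian genomes, so a probe's signal may be shared.

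**Figure D4:**
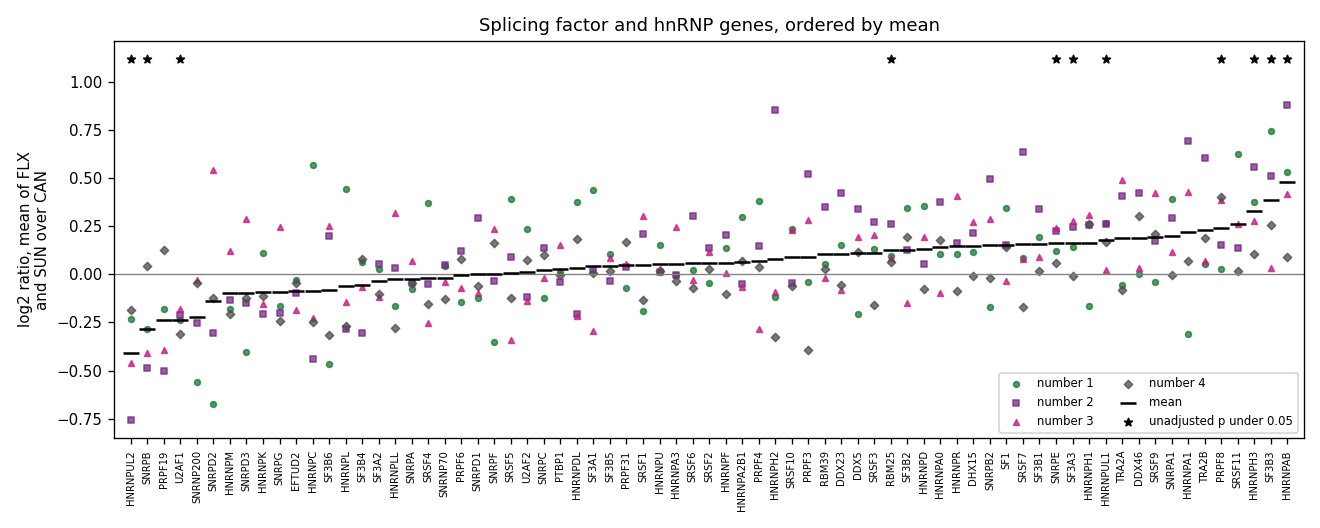
Log2 ratios (vertical axis) of 71 splicing factor and hnRNP genes, ordered by their mean, with the mean of FLX and SUN over CAN in replicate numbers 1 to 4 as coloured symbols, the mean as a black bar and a star over genes at unadjusted p under 0.05. The 11 starred genes sit at both ends, 3 below and 8 above 0.

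Among splicing factors and hnRNP proteins, 50 of 71 genes had means above CAN. At unadjusted p under 0.05 there were 8 above it and 3 below it (15.5%, against 3.59% of all genes), and 16 (22.5%) kept 1 sign in all numbers, against 11.4%. The list was written with earlier results of these data known, so these shares are no test of it. Its members also varied more, with a median SD over numbers of 0.19, against 0.12 for all genes. Above CAN were HNRNPAB (0.48 ± 0.33), HNRNPH3 (0.33 ± 0.19 over its probes), HNRNPUL1 (0.18 ± 0.11) and RBM25 (0.13 ± 0.09), and of the spliceosome SF3B3 (0.39 ± 0.31), SF3A3 (0.16 ± 0.13), PRPF8 (0.24 ± 0.18) and SNRPE (0.16 ± 0.09). Below CAN were U2AF1, which recognises the end of introns (−0.24 ± 0.06), HNRNPUL2 (−0.41 ± 0.26) and SNRPB (−0.28 ± 0.23). U2AF1 was below CAN in all 8 diet values, at −0.29 in FLX and −0.18 in SUN. The list median was 0.06, and 0.05, 0.14, 0.07 and −0.01 by number. It ranged from 0.03 to 0.08 when 1 number was left out. The count at unadjusted p under 0.05 was 5 (7.04%, against 2.67% of all genes) without number 2. It was 12 or 13 (16.9% to 18.3%) without another number. Over all genes the share was 4.27%, 6.69% and 4.55% without numbers 1, 3 and 4.

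In protein quality control, chaperones of the endoplasmic reticulum had 24 of 37 means above CAN and 3 members at unadjusted p under 0.05 (8.11%, against 3.59% of all genes). These were PDIA6 (0.38 ± 0.27), CALR (0.33 ± 0.25) and HSP90B1 (0.32 ± 0.31 over its probes). Number 2 was the highest for each, and its list median of 0.20 exceeded those of the others, from −0.03 to 0.07. Without number 2 the list median was −0.0079, against 0.05 with it. Of 46 proteasome genes, PSMC3, an ATPase of the regulatory cap, read −0.57, −0.36, −0.49 and −0.33, and PSMD6, of the same cap, 0.32, 0.29, 0.12 and 0.22. Both kept their sign in all 8 diet values, on opposite sides of CAN.

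In replication and division, MCM6, of the replicative helicase, averaged 0.14 ± 0.07 and POLA2, of the priming polymerase, −0.13 ± 0.08. DNA replication had 5 of 50 members at unadjusted p under 0.05 (against 3.59% of all genes), 2 above CAN and 3 below it. The cyclin and spindle genes UBE2C (0.24 ± 0.11) and PLK4 (0.17 ± 0.10) were above CAN and KIF11 (−0.20 ± 0.12) below it. Of growth signalling genes, MTOR averaged 0.36 ± 0.21 and PIK3CB, a catalytic subunit of phosphoinositide kinase, −0.41 ± 0.30. TET2, which oxidises methylated cytosine, averaged 0.18 ± 0.10 with all 8 values above CAN, and the mitophagy gene BNIP3 −0.25 ± 0.16 with all 8 below it. BNIP3 was at −0.51 with CAN in Cy3 and 0.0022 with CAN in Cy5. At unadjusted p under 0.05 stood 2 interferon-stimulated genes (4.65%, against 3.59% of all genes). SAMHD1 (0.16 ± 0.09) was above CAN and IRF7 (−0.35 ± 0.33) below it. OCLN, of tight junctions, averaged 0.23 ± 0.14 and CLDN3, of the same junctions, −0.23 ± 0.18. Of the 1439 distinct genes on the 43 lists, 80 (5.56%, against 3.59% of all genes) were at unadjusted p under 0.05, 42 above CAN and 38 below it, and 0 passed adjustment in limma. The lists were written with earlier results of these data known, so a share above that of all genes is no test of them. For 4 of the 43 lists the median had 1 sign in all 4 numbers: lipogenesis and trophoblast secreted products above CAN, fatty acid uptake (with both dye orientations averaged) and apoptosis below it, none of them further than 0.0428 from it.

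FLX and SUN were set against each other as differences within each number, in which a shared CAN sample cancels. In limma 0 of 43794 probes (0.0%) passed adjustment, with a smallest adjusted p of 0.885, and 2326 (5.31%) were at unadjusted p under 0.05, 970 higher in FLX (2.21%) and 1356 lower (3.1%). Without number 2 there were 1465 probes at unadjusted p under 0.05 and 2 past adjustment. For the named probes, the unadjusted p of FLX minus SUN was 0.00894 for ECHS1, 0.0101 for TBRG4 and 0.031 for LIG1, which averaged −0.46 in FLX and −0.81 in SUN. All 3 genes were below CAN in both diets, nearer to it in FLX. Means over a gene's probes differed in both directions. In limma MYL6 (unadjusted p 0.00319) and BNIP3 (0.0431) were lower in FLX than in SUN, and HNRNPUL2 (0.036) was higher.

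No lineage gene passed adjustment in limma. Of 25 trophectoderm genes 12 had positive means, with ASCL2 (0.19 ± 0.08) and KLF5 (0.10 ± 0.03) the only members at unadjusted p under 0.05 (8.0%, against 3.59% of all genes). Without the replicate block neither was, and ASCL2 in number 3 was at 0.63 in FLX and −0.25 in SUN. CDX2 averaged −0.08 ± 0.25, GATA3 0.02 ± 0.16 and KRT18 −0.02 ± 0.44. No inner cell mass gene reached unadjusted p under 0.05; POU5F1 averaged 0.02 ± 0.30, SOX2 −0.10 ± 0.10 and NANOG ran from −0.92 in number 1 to 3.98 in number 2. Of the hypoblast markers, SOX17 averaged 0.03 ± 0.06 and GATA4 −0.07 ± 0.35. HDAC1, a member of the hypoblast list but not chosen as a marker of that lineage, averaged 0.25 ± 0.22. In pools of whole embryos, fewer cells of a type and less RNA per cell cannot be told apart.

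Lists of other cells that could come with the embryos had medians of 0.0065 for cumulus and granulosa cells, −0.0022 for uterine epithelium and fluid, −0.0085 for blood cells, −0.0018 for spermatozoa and 0.0077 for oocyte and maternal transcripts, and 0 members of these 5 lists were at unadjusted p under 0.05. In 3 members of these lists 1 number stood apart from the others. LTF, the lactoferrin of uterine fluid, was at −2.44 in number 3 against −0.16 to 0.05 in the others. ALAS2, the haem synthesis enzyme of red cells, was at −0.50 in number 4 against 0.50 to 0.67, and SPATA18, of spermatozoa, at 0.12 in number 3 against 0.07.

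Transcripts of the sex chromosomes moved with the replicate number in both diets. XIST, the RNA that coats the inactive X chromosome of female cells, was at 0.99, 2.70, −0.91 and −1.89 in FLX and at 0.93, 2.15, −0.19 and −0.56 in SUN. Numbers 1 and 2 were above CAN and numbers 3 and 4 below it in both diets, which are taken to share the CAN samples of a number. Numbers 1 and 2 were also on slides 1 and 3, and numbers 3 and 4 on slides 2 and 4. Slide and number therefore cannot be told apart in this split. The median of the 551 X chromosome genes outside the list of dimorphic genes followed the same split, at 0.03, 0.05, −0.01 and −0.04 by number, against 0.0064, 0.00093, −0.0010 and −0.00056 for 14451 autosomal genes. Of 5 Y-linked genes measured, 3 had positive and 2 negative means, with a median of 0.04. DDX3Y was below CAN in all 4 number means, most in number 2 (−0.50, against −0.12 to −0.05 in the others), while ZFY read 0.29, 0.06, 0.10 and −0.07 and EIF1AY 0.15, −0.18, 0.11 and 0.13. Over the 4 numbers XIST averaged 0.40 ± 1.63, and 7 of 568 X chromosome genes (1.23%, against 3.68% of autosomal genes) were at unadjusted p under 0.05. The part of embryo sex in the values above was not tested.

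**Figure D5:**
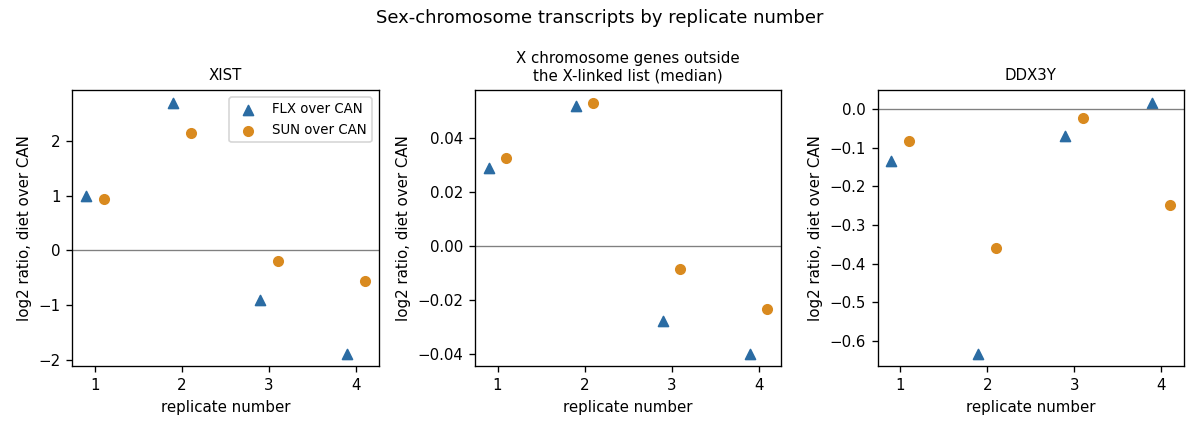
Log2 ratios of diet over CAN (vertical axes, each with its own scale) by replicate number for XIST, for the median of 551 X chromosome genes outside the dimorphic list, and for DDX3Y, with FLX as blue triangles and SUN as orange circles. For XIST and the X chromosome median, numbers 1 and 2 lie above 0 and numbers 3 and 4 below 0 in both diets.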

How the data were processed

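Day 7.5 blastocyst RNA was measured on 16 two-colour arrays, 8 of FLX with CAN and 8 of SUN with CAN, in 4 biological replicates each with a dye exchange. The authors deposited log2 ratios, already normalised; the base of 2, the scaling and the centring by the authors are not given in the sources used here, and the array medians ran from −0.0139 to 0.00947. The direction, Cy5 over Cy3, was inferred from CAN being named as control and from the placement of the dyes. The diet sample was in Cy5 on the lower-numbered array of each replicate, whose sample name carries no prime. Array and dye exchange correlated at −0.616 to −0.165 as deposited. Spot intensities were not used here, so weak probes could not be filtered; precision is limited by the number of arrays. No value was missing (0) and no column was left out (0).

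Ratios were turned to diet over CAN, averaged with their dye exchange and averaged over FLX and SUN of a replicate number. The numbers were taken to pair the samples, since the labels name 1 CAN sample per number. The deviations of FLX and SUN values from their diet means correlated at 0.42, 0.58, 0.54 and 0.41 in numbers 1 to 4. Between different numbers they correlated at −0.31 to 0.01, where centring over 4 numbers lowers the values. That a CAN name stands for 1 pool on both sets of arrays was assumed. What made the values of a number alike was not tested. Slides 1 and 2 carried FLX and slides 3 and 4 carried SUN, with numbers 1 and 2 on slides 1 and 3. limma 3.58.1 (R 4.3.3; lmFit with an intercept and eBayes, two-sided, Benjamini-Hochberg over all probes or genes) tested the 4 means, with 3 residual and 1.98 prior degrees of freedom; an exact sign-flip test of 4 values cannot go below p = 0.125. The fit was tested on simulated data. Of 43794 probes 21790 had 1 symbol, 0 several and 22004 none in the platform annotation; 1524 symbols were updated and 21569 were found in the ARS-UCD2.0 gene table, used for names and chromosomes only. A gene's value was the mean of its probes (15216 genes).

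The text names the 12 of smallest unadjusted p on each side with 1 sign in all 4 numbers, as no probe passed; the 4 highest and 4 lowest at unadjusted p under 0.05 with 1 sign in all 8 diet values; and up to 3 of smallest p per list. Further pathway and marker genes were named for their role, after their values were seen. Members and the 43 lists were chosen with earlier results of these data known. Lists are described by counts and medians, without a test. statmod 1.5.0, Python 3.11.15, numpy 2.4.6, pandas 2.3.3 and matplotlib 3.10.9 were also used. The alternatives tried were the replicate block, single numbers left out, each dye orientation, centring, scaling, quantile normalization, a robust prior, a slide block, each diet alone and the median of a gene's probes.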

Additional observations from a re-analysis of the deposited data

Results flagged for a closer look

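Of 199 values tested for an outlying number (named probes, list genes and list medians), 12 had 1 number that stood apart from the other 3 by Dixon's criterion at the 95% level; chance alone gives about 1 in 20. KLC1 was at 0.2781 in number 1, against 0.23 in the other numbers. NMD3 was at −0.3456 in number 4, against −0.69 to −0.64, and DESI2 at −0.1922 in number 4, against −0.84 to −0.80. PLIN3 was at 0.08216 in number 4, against −0.35 to −0.33. GGPS1 was at −0.2476 in number 2, against −0.13 to −0.12. COX8B, a subunit of cytochrome c oxidase, was at 0.5062 in number 4, against 0.18 to 0.22. LTF was at −2.445 in number 3, against −0.16 to 0.05. ALAS2, the haem synthesis enzyme of red cells, was at −0.5025 in number 4, against 0.50 to 0.67. SPATA18 was at 0.124 in number 3, against 0.07 in the others. DDX3Y was at −0.4962 in number 2, against −0.12 to −0.05. The median of the triglyceride storage list was −0.0836 in number 3, against 0.04 to 0.05, and that of the actomyosin list 0.1864 in number 2, against −0.05 to −0.02.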

How the results depend on the processing

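The unit of 4 number means limits the precision, signal over background is unknown, and the direction of the ratio is likely but not stated. No probe or gene passed adjustment for the mean of the diets under any alternative run. The named probes were chosen for 1 sign in all 4 numbers, so their kept signs say nothing of stability. Of the recomputed counts of calls, 17 moved by over 1.5 times and 68 did not. The 68 include the counts past adjustment, which stayed at 0 for the mean of the diets. Of the list medians, 33 moved by more than their SD over numbers and 655 did not. Changing the replicate block, a slide block and a robust prior left every mean as it was, so under these the 43 list medians could not move. These tallies therefore say little of stability. Without the replicate block, 2969 probes and 1108 genes were at unadjusted p under 0.05. With 1 number left out these counts ran from 1188 to 2837 probes and from 407 to 1018 genes, and the 1.5-fold count from 15 to 155. With CAN in Cy3 alone there were 5723 probes, 1839 genes and 147 probes at 1.5-fold, and with CAN in Cy5 alone 4381, 1369 and 116. SUN alone gave 87 probes at 1.5-fold. For FLX minus SUN, leaving out 1 number gave 0 to 2 probes past adjustment and 1465 to 2970 at unadjusted p. The cause of these moves was not tested. Of list genes, 33 values turned sign. With CAN in Cy5 alone these were ELOVL4 (−0.0646), ELOVL3 (−0.0210), NR1H2 (0.0172), SLC36A4 (0.0801), LONP1 (0.0222), BNIP3 (0.0022), TSC1 (−0.0336), FGF7 (0.0375), CFL1 (−0.0906), SOX2 (0.0145), NODAL (0.0516), FOXL2 (−0.0055), PRM1 (0.0366), ZFY (−0.10) and TSPY (0.0385). With CAN in Cy3 alone they were SLC27A2 (0.0117), DGAT1 (−0.0485), PTGFR (0.0621), PRDX2 (−0.0283), COX8B (−0.13), SLC38A7 (−0.0761), FGF19 (0.0166), FGF23 (−0.0101), PAG21 (−0.0708), PAG11 (−0.0129), LIF (−0.0722) and MUC4 (−0.0676). In SUN alone they were the mean of all MYL6 probes (0.0401), SPATA18 (−0.0348) and TSPY (0.0149), and in FLX alone PAG2 (−0.35), SERPINE2 (−0.00065) and TNP1 (−0.0076).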

Other observations

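The probe that varied most between the 4 number means was that of LOC783508, at 0.93, 3.83, −2.74 and 3.57. Next were several genes of known function. NANOG, a factor of the epiblast, had number means of −0.92, 3.98, −0.71 and 1.67. KRT19, a keratin of the trophectoderm, read −1.45, 2.15, −1.77 and 0.93, and TKDP1, a trophoblast protease inhibitor, 1.38, 1.90, −2.26 and 0.04. The amino acid transporter SLC1A4 read −1.73, −3.57, 1.63 and −0.43. The calcium-binding protein CALB1 (0.08, 2.22, −1.81 and 1.20) and the haem-binding protein HEBP2 (0.04, 2.95, −1.23 and 0.87) were, like NANOG and KRT19, highest in number 2. NID1, of the basement membrane, was at 1.82 in number 2 and 2.15 in number 4, against −0.48 and −0.85 in numbers 1 and 3. None of these genes had 1 sign in all 4 numbers.

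At the level of probes at least 1.5-fold from CAN and at unadjusted p under 0.05, 20 of 30 probes had a symbol, for 19 genes. They included PAGE4, an X-linked gene, at 1.52, 1.40, −0.21 and 0.68. PAGE4 read 1.25, 0.30, 0.77 and 0.18 in FLX and 1.795, 2.505, −1.19 and 1.19 in SUN. The probes at this level also included TKT, the transketolase that works beside TALDO1 in the pentose phosphate pathway. TKT had 1 probe at −0.94, −1.14, −0.42 and 0.02 and another averaging −0.06. Of the same pathway, RPIA (0.14 ± 0.11) and TKTL1 (0.13 ± 0.11) averaged above CAN. EZR, a linker of membrane and actin, read −1.07, −1.46, −0.75 and 0.19.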
